A study of Rattus norvegicus with 15 samples.

Results

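The expression of 9 genes of tubular injury and fibrosis was followed in kidneys of 5-week-old rats: Havcr1, Lcn2, Clu, Spp1, Cd44, Vim, Timp1, Tgfb1 and Snai1. Members were all probe sets whose platform annotation names 1 of these 9 genes, which gave 14 of the 26202 non-control probe sets on the 3 array designs A, B and C. Design A held 12 probe sets for 8 genes, design B held the probe set for Snai1, and design C held another one for Timp1. The animals were Dahl salt-sensitive rats (Dahl S), an inbred strain that becomes hypertensive on a high-salt diet, and rats of a congenic strain that carries a chromosome 10 segment on the Dahl S background. Total RNA of each kidney was hybridised to single-channel arrays, 5 per design and 15 in all. On B and C, kidneys 1 to 3 were Dahl S (n = 3) and kidneys 4 and 5 congenic (n = 2). On A the descriptions call all 5 kidneys Dahl S, so the strain of kidneys 4 and 5 is unsettled there. The comparison of kidneys 4 and 5 with kidneys 1 to 3 on A is therefore one of kidney numbers, not of strains. The sources name no diet, sex, donor strain or segment boundaries, and do not say whether each kidney came from a separate animal. The p-values thus rest on sample-to-sample spread alone, part or all of which could be technical.

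Injured proximal tubule cells lose their brush border, dedifferentiate and switch on surface and secreted proteins that are nearly silent in the healthy kidney. Havcr1 (kidney injury molecule 1) and Lcn2 (neutrophil gelatinase-associated lipocalin) are the best known of these and serve as urinary markers of tubular damage, while clusterin and osteopontin rise in injured and regenerating tubules. If repair fails, transforming growth factor beta drives matrix deposition, with mesenchymal genes such as vimentin and the transcription factor Snai1 on the epithelial side. Osteopontin, Cd44 and vimentin are also made by cells of normal or growing kidneys, among them loop of Henle and stromal cells and leukocytes.

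Kidney markers were present where the designs held them. The phosphate transporter Slc34a1 of the proximal tubule lay between 33515 and 62655 and uromodulin (Umod) of the thick ascending limb between 29721 and 38633 on A, in units of signal intensity. On C the distal tubule gene Calb1 lay between 10819 and 15222. No tubule marker of the lists was measured on B, where the podocyte gene Podxl lay between 2469 and 5106. Array medians ran from 294.5 to 334.3 for A, from 472.8 to 519.5 for B and from 491.3 to 524.4 for C, and so few arrays limit how precise any of these values can be. For RNA quality, GAPDH probe sets at the 3′ end were 1.04 to 1.18 times as bright as those at the 5′ end, and actin probe sets 1.23 to 1.55 times. Before log2, low values were raised to a floor, each design's 25th percentile, which was 85.1 for A, 140.1 for B and 153.6 for C. A probe set was tested if its mean signal was at least the design's median value, 319.5 for A, 485.8 for B and 510.3 for C. Of the 14 member probe sets 10 were tested, 8 of them on A. Across genes tested on both of a pair of designs, the deviations of same-numbered kidneys had a Pearson r of 0.05 to 0.24 between A and B (365 genes), 0.0049 to 0.26 between A and C (429 genes) and 6.5e-05 to 0.32 between B and C (600 genes). For unequal numbers it was −0.25 to 0.11, −0.27 to 0.08 and −0.20 to 0.12. Of the 5 numbers, 4, 3 and 3 matched best with their own.

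No member passed an adjusted p of 0.05 in the comparison of kidneys 4 and 5 with kidneys 1 to 3 on any design. On A, 8 of 12 member probe sets were tested, 0 passed, and the background was 0% of 4411 probe sets (limma, Benjamini-Hochberg, with 154, or 3.49%, at an unadjusted p under 0.05). On B, Snai1 did not pass where 4 of 4385 probe sets did (0.0912%), with 3.49% at an unadjusted p under 0.05. On C, Timp1 did not pass, and the background was 0% of 4420 probe sets (limma, with 274, or 6.2%, at an unadjusted p under 0.05). Fewer cells of a type and less RNA per cell cannot be told apart in whole kidneys. What the members showed was spread between single kidneys. On A, the log2 SD over the 5 kidneys was 0.33 to 0.99 for the tested probe sets, where the median of all tested probe sets was 0.21.

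**Figure D1:**
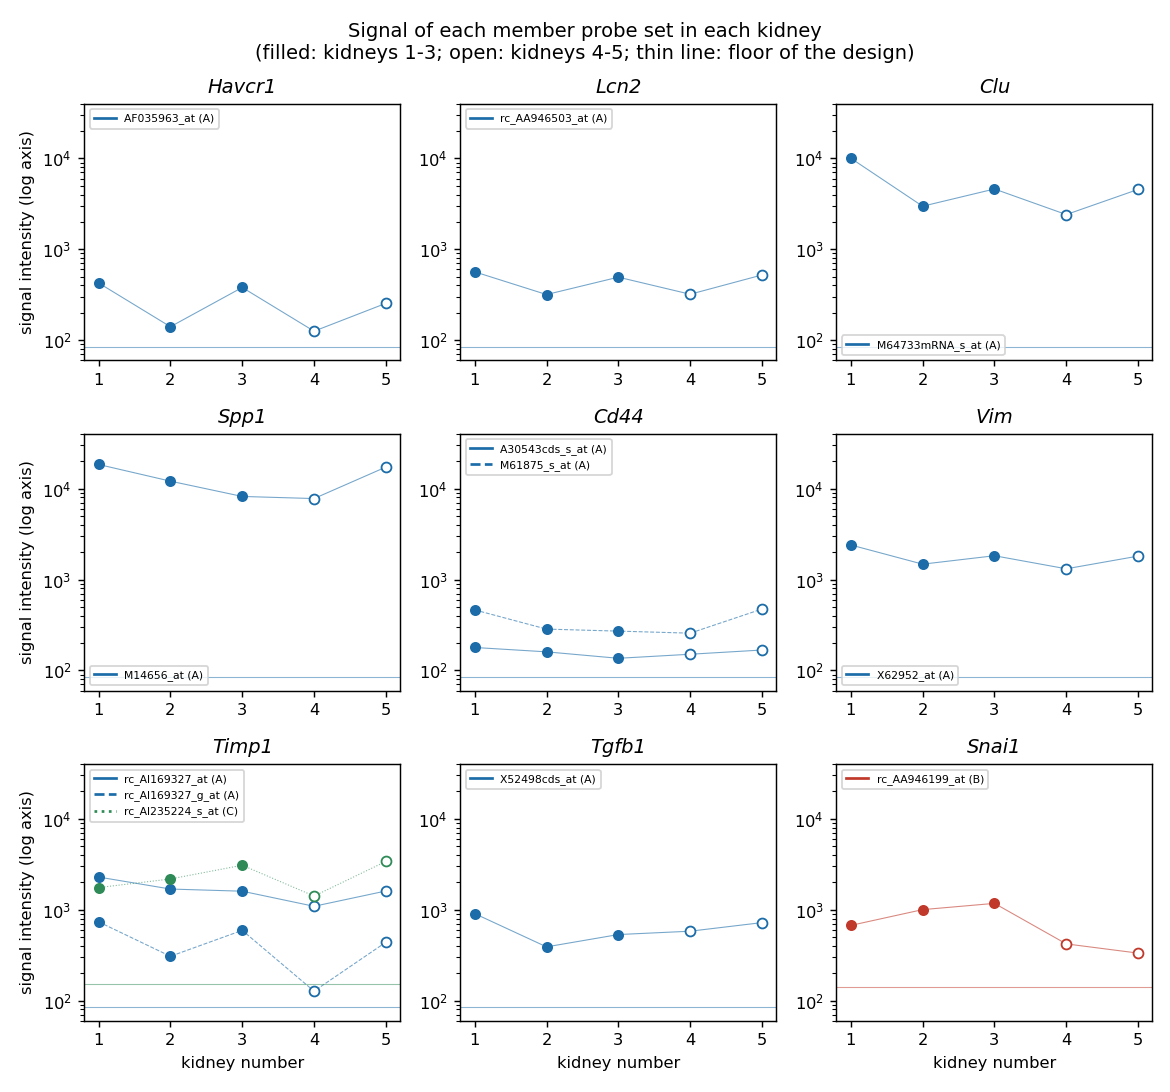
Signal intensity (log axis) of the member probe sets in each kidney, with filled points for kidneys 1 to 3, open points for kidneys 4 and 5, colours for the design and a thin line at its floor; lines only join the values of a probe set, and the Cd44 probe sets below the floor in all kidneys are left out. Clu reaches 10040 in kidney 1, and Snai1 is the gene whose open points (333.2 and 420.8) all lie below its filled points.

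Havcr1, a phosphatidylserine receptor that lets surviving tubule cells engulf dead neighbours, was dim on A. Its signal was 426.3, 140.6 and 380.2 in kidneys 1 to 3 and 125.6 and 254.3 in kidneys 4 and 5. Kidneys 1 and 3 were high and kidneys 2 and 4 low, so the groups overlapped, and every value lay above the floor of 85.1. The log2 difference of kidneys 4 and 5 from kidneys 1 to 3 was −0.67, and Havcr1 was not tested because its mean missed the filter. Without the filter its limma adjusted p was 1. Havcr1 is the member that lies on chromosome 10, the chromosome of the congenic segment, according to the RefSeq annotation of assembly GRCr8, and it was measured on A, where the strain of kidneys 4 and 5 is unsettled. Its upstream window is shown for that reason, as the 250 bases before the start used by RefSeq's table (GRCr8, chr10:31629528-31629777, plus strand), with no capitals because none of the motifs searched was in it.
Havcr1: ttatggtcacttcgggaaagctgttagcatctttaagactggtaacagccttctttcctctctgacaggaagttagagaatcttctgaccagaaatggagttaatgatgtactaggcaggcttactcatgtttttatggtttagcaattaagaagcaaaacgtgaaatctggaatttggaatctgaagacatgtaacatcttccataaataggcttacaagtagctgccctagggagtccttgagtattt

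Lcn2, an iron-siderophore carrier secreted by distal tubules and neutrophils, measured 564.9, 317.7 and 493.6 in kidneys 1 to 3 and 320.2 and 521.7 in kidneys 4 and 5. The groups overlapped throughout, with kidneys 2 and 4 lowest. The log2 difference was −0.13 (SE 0.31, 95% interval −0.85 to 0.60, limma adjusted p = 0.9999).

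Clu, a secreted chaperone induced in stressed and regenerating tubules, had the widest range of the brightest probe sets of each gene. Its signal was 10040, 2977 and 4605 in kidneys 1 to 3 and 2409 and 4555 in kidneys 4 and 5, a 4.17-fold range. Kidney 1 alone was high, at 2.67 times the median of the other 4 kidneys, and those 4 overlapped between the groups. Its log2 SD over the 5 kidneys lay above that of 98.6% of the tested probe sets of A. The log2 difference was −0.64 (SE 0.51, 95% interval −1.83 to 0.55, limma adjusted p = 0.999), and −0.16 without kidney 1.

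Spp1 (osteopontin), a secreted ligand of integrins and Cd44 that draws in macrophages, was strongly detected in all 5 kidneys of A. Its signal was 18427, 12077 and 8199 in kidneys 1 to 3 and 7770 and 17251 in kidneys 4 and 5. Kidneys 1 and 5 were high and kidneys 3 and 4 low, 1 of each group. The log2 difference was −0.08 (SE 0.42, 95% interval −1.08 to 0.92, limma adjusted p = 0.9999), and it was 0.22 without kidney 1 and 0.50 without kidney 4.

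Cd44, the hyaluronan receptor that also binds osteopontin, had 4 probe sets on A. The probe set M61875_s_at measured 463.0, 284.7 and 270.5 in kidneys 1 to 3 and 256.8 and 473.1 in kidneys 4 and 5, so that kidneys 1 and 5 were high, as they were for Spp1. Its log2 difference was 0.08 (SE 0.33, 95% interval −0.70 to 0.87, limma adjusted p = 0.9999). The probe set A30543cds_s_at stayed between 135.9 and 178.7 in all 5 kidneys and was below the filter. The remaining 2 probe sets, AF014365_i_at (0.8 to 1.7) and AF014365_s_at (19.0 to 79.6), lay below the floor in all 5 kidneys and have no order.

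Vim (vimentin), the intermediate filament of mesenchymal and dedifferentiated tubule cells, measured 2398, 1475 and 1826 in kidneys 1 to 3 and 1312 and 1809 in kidneys 4 and 5. Kidney 1 was highest and kidney 4 lowest, with the groups overlapping. The log2 difference was −0.27 (SE 0.25, 95% interval −0.87 to 0.32, limma adjusted p = 0.999).

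Timp1, an inhibitor of matrix metalloproteinases, had a pair of probe sets on A made from the same expressed sequence tag, and another on C. The first on A, rc_AI169327_at, measured 2288, 1689 and 1599 in kidneys 1 to 3 and 1091 and 1607 in kidneys 4 and 5, with kidney 5 just above kidney 3. The second on A, rc_AI169327_g_at, measured 735.6, 307.3 and 593.1 against 127.1 and 438.9, a 5.79-fold range. Kidney 1 was highest and kidney 4 lowest by both, while kidneys 2 and 3 changed places. The log2 differences were −0.47 (95% interval −1.04 to 0.10) and −1.12 (95% interval −2.43 to 0.20), with a limma adjusted p of 0.999 for each, and without kidney 4 they were −0.19 and −0.22.

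On C, where kidneys 4 and 5 are congenic, Timp1 measured 1753, 2179 and 3086 in Dahl S kidneys and 1414 and 3399 in congenic kidneys. The congenic kidneys held both the lowest and the highest value. The log2 difference was −0.05 (SE 0.38, 95% interval −0.94 to 0.84, limma adjusted p = 0.980), and it was 0.58 without kidney 4 and −0.69 without kidney 5. Kidney 4 was lowest for Timp1 on both designs, but kidney 1, highest on A, was second lowest on C. The designs were scaled separately and their probe sets differ, so only the order within a design is set side by side.

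Tgfb1, the growth factor at the head of the fibrotic response, measured 906.0, 390.3 and 533.2 in kidneys 1 to 3 and 580.3 and 721.4 in kidneys 4 and 5. Kidneys 4 and 5 fell inside the range of the others. The log2 difference was 0.17 (SE 0.34, 95% interval −0.63 to 0.98, limma adjusted p = 0.9999), and −0.10 without kidney 2.

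Snai1, a zinc finger repressor of E-cadherin that is switched on downstream of transforming growth factor beta, was the member whose groups did not overlap. On B its signal was 672.2, 1003 and 1174 in Dahl S kidneys and 420.8 and 333.2 in congenic kidneys. Every congenic value was below every Dahl S value, which held for 9.44% of the tested probe sets of B. The mean fold was 2.47 in favour of Dahl S (log2 difference −1.30, SE 0.26, 95% interval −1.92 to −0.69, not adjusted for the number of probe sets). The unadjusted p was 0.00165, rank 10 of 4385, and it did not pass after adjustment (limma adjusted p = 0.725). An unadjusted p under 0.01 was reached by 0.616% of the probe sets of B. When each array was left out in turn, the log2 difference lay between −1.53 and −1.13, and the limma adjusted p between 0.150 (without kidney 1) and 0.999 (without kidney 3). Snai1 lies on chromosome 3, so it is not a gene of the congenic chromosome. Its lower level in congenic kidneys was known when the gene was listed, and is a description of these kidneys.

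The upstream windows of Snai1 and Spp1 are shown because these are the members whose 250 bases before the start held the E-box CAGGTG, a sequence that Snail proteins can bind. In capitals is each match on either strand to CAGGTG, to the TATA box TATAAA, to the AP-1 site TGANTCA or to the STAT site TTCNNNGAA. A promoter window was found for 8 of the 9 members (all but Clu) in RefSeq's table for GRCr8, and CAGGTG was in 2 of these 8 and in 15.9% of all 33469 windows of this length. TATAAA was in 2 of the 8 (Spp1 and Vim) and in 12.9% of all windows, and TGANTCA and TTCNNNGAA were in 0 of the 8, and in 6.34% and 7.67% of all. The Snai1 window is chr3:176667226-176667475, plus strand, with the match beginning 142 bases before the start. The Spp1 window is chr14:5619805-5620054, minus strand, with the letters CAGGTG beginning 96 bases and TATAAA 204 bases before the start. A match is a run of letters and no evidence of binding.
Snai1: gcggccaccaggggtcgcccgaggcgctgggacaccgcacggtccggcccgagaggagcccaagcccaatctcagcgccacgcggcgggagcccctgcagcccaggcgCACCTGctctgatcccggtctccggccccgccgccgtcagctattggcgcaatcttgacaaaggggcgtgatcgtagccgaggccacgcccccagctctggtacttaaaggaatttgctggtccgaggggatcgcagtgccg
Spp1: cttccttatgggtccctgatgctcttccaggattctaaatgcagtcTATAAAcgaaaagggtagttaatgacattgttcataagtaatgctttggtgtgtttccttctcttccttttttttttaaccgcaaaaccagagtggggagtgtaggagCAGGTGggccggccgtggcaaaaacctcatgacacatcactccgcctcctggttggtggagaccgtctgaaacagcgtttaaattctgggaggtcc

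Taking the brightest probe set of each gene, kidney 1 gave the highest value on A for 7 of the 8 members measured there, all but Cd44, which was highest in kidney 5. Over all 4736 named genes of A, kidney 1 was the highest for 13.1%. The median deviation of the 8 members from the mean of the 5 kidneys was 0.55 in kidney 1 on the log2 scale, against −0.01 for all genes. Kidney 4 gave the lowest value for 6 of the 8, and for 32.1% of all genes, with a median deviation of −0.49 against −0.03. The median signal of kidney 4 was also the lowest of A, 0.12 below the mean of the 5 arrays on the log2 scale. With every array scaled to the same median, kidney 4 was lowest for 2 of the 8 members and kidney 1 highest for all 8. The median of kidney 1 relative to the mean of the 5 arrays was −0.04 on the log2 scale, so this scaling raised kidney 1 too. No share of all genes is given after this scaling, and 13.1% and 32.1% are for the values as deposited. Kidney 1 is labelled Dahl S and was singled out after its values were seen, so these counts describe that array and carry no test.

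**Figure D2:**
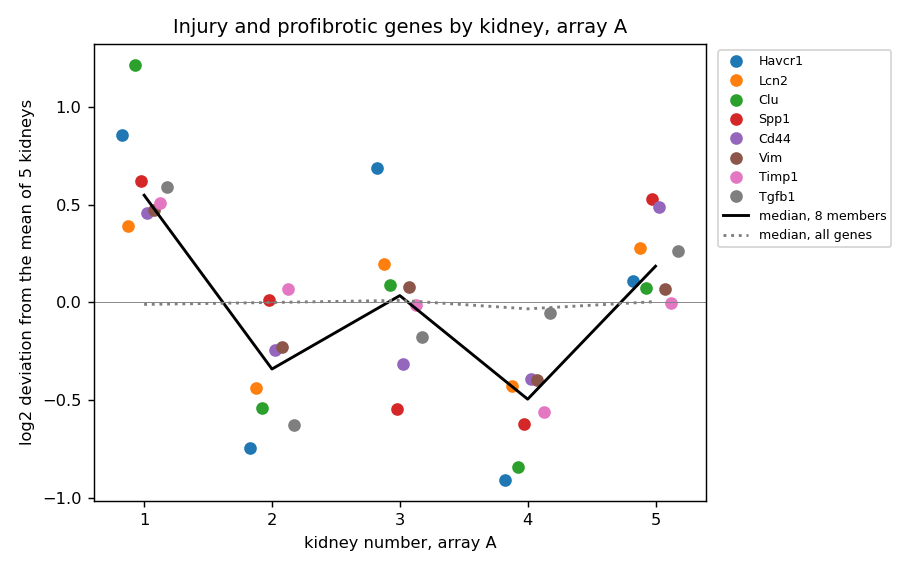
Log2 deviation of each of the 8 genes measured on A (brightest probe set) from its mean over the 5 kidneys, by kidney number, with the median of the 8 (solid line) and of all named genes (dotted line). All 8 genes lie above their mean in kidney 1 and below it in kidney 4, while the medians of all genes stay between −0.03 and 0.01.

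Other injury and stress genes gave no call on any design. Of 25 genes on the list 21 were measured on A, 8 of them highest in kidney 1 and 11 lowest in kidney 4. These shares were 38.1% and 52.4%, against 13.1% and 32.1% of all genes. Kidney 3 was highest for 7 of the 21, or 33.3%, against 30.3% of all genes. The median deviation of the list was 0.093 in kidney 1, 0.089 in kidney 3 and −0.22 in kidney 4. The count for kidney 4, the array with the lowest median of A, was not recomputed after median scaling. None of the 14 tested passed in either direction (median log2 difference of kidneys 4 and 5 from kidneys 1 to 3 −0.04, where all tested probe sets had −0.02). The fibrinogen chain Fga, made by injured tubules, measured 889.3, 516.6 and 726.9 in kidneys 1 to 3 and 473.7 and 671.4 in kidneys 4 and 5, and the annexin Anxa1 was 1796 in kidney 1 and 1178 to 1371 in the others. The smallest p on A belonged to galectin 3 (Lgals3), at 1553, 1374 and 1809 against 937.1 and 1399, to the immediate early gene Egr1, at 1281, 1133 and 1217 against 1388 and 1603, and to heme oxygenase (Hmox1), at 603.1, 479.5 and 718.2 against 387.3 and 533.6. Fga and Anxa1 were named after their values were seen. On C, the matricellular gene Ccn1 measured 886.1, 738.9 and 1109 in Dahl S and 287.7 and 1043 in congenic kidneys, again lowest in kidney 4. On B the tested members were B2m and S100a6, with log2 differences of 0.01 each, and on C the other tested one, B2m, had −0.09.

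Profibrotic and mesenchymal genes gave no call either. Of the 24 measured on A, 9 were highest in kidney 1 and 11 lowest in kidney 4. These shares were 37.5% and 45.8%, against 13.1% and 32.1% of all genes, again without a recount after median scaling. None of the 15 tested passed (median log2 difference −0.10, and 11 of 15 negative, against 53.5% of all tested probe sets). Col1a2, a chain of type I collagen, measured 3432, 2677 and 3733 in kidneys 1 to 3 and 2013 and 2603 in kidneys 4 and 5, groups that did not overlap. On C it measured 17428, 12834 and 14057 in Dahl S and 8897 and 12572 in congenic kidneys, also without overlap, at a limma adjusted p of 0.794. The share of probe sets without overlap and with lower values in kidneys 4 and 5 was 10.1% on A and 12.2% on C. Col1a1, the other chain of type I collagen, overlapped on A, at 9823, 10271 and 6434 against 8354 and 7839. Its log2 difference was −0.10. Pdgfra, a receptor of stromal fibroblasts, measured 2237, 1793 and 2269 against 1662 and 1457 on A, and the gelatinase Mmp2 623.3, 519.2 and 609.1 against 350.7 and 520.9. On C none of the 8 tested passed, 4 being lower and 4 higher, and the smallest p after Col1a2 belonged to the smooth muscle genes Acta2 and Tagln, at 539.3 to 682.4 and 2018 to 3177 in congenic kidneys against 748.4 to 822.5 and 2986 to 3856 in Dahl S. On B none of 4 passed, and the cadherin Cdh2, a mesenchymal adhesion gene, measured 533.4, 482.0 and 526.1 against 571.4 and 610.3, the opposite direction to Snai1. The matricellular gene Ccn2 and the inhibitor Timp3 had log2 differences of −0.14 and 0.14 on B. The E-cadherin gene Cdh1 measured 3340, 3021 and 3447 in Dahl S and 3167 and 3306 in congenic kidneys on B. Its log2 difference was −0.01.

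The other genes of the transforming growth factor beta pathway gave no call on A (9 tested), B (5 tested) or C (10 tested). Their median log2 differences were −0.06, −0.03 and −0.10. Of the 17 measured on A, 4 were highest in kidney 1 and 6 lowest in kidney 4. These shares were 23.5% and 35.3%, against 13.1% and 32.1% of all genes, and the median deviation was 0 in both kidneys. On A, Tgfb3 measured 449.9, 467.9 and 387.6 in kidneys 1 to 3 and 265.1 and 379.8 in kidneys 4 and 5, and Ltbp1, which holds the latent growth factor in the matrix, 826.3, 919.0 and 1008 against 761.7 and 755.6. On C, the type I receptor Tgfbr1 measured 1111, 855.6 and 1117 in Dahl S and 749.1 and 835.1 in congenic kidneys, and the signal transducer Smad3 1130, 1293 and 1575 against 988.8 and 1078. Neither pair of groups overlapped, with congenic kidneys lower, which held for 12.2% of the tested probe sets of C. The limma adjusted p was 0.806 and 0.810. On B, Bmp7, a tubular factor that opposes transforming growth factor beta, measured 2587, 2269 and 2588 in Dahl S and 3315 and 2718 in congenic kidneys (limma adjusted p = 0.998). The proteoglycan Dcn on A had a log2 difference of −0.49, Smad1 and Smad6 on B −0.21 and −0.11, and Smad4 on C −0.23, none of them called.

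Partners of osteopontin and Cd44 and the genes that decline in injured tubules also gave no call. Of 5 osteopontin and hyaluronan partners tested on A, 2 were lower and 3 higher in kidneys 4 and 5, and Ezr (ezrin), which ties Cd44 to actin, measured 5132, 5821 and 6040 against 6462 and 6436. Of the 8 partners measured on A, 0 were highest in kidney 1 and 1 was lowest in kidney 4. These shares were 0% and 12.5%, against 13.1% and 32.1% of all genes, with median deviations of −0.10 and −0.007. The integrin chain Itgb1 and the Cd44 linker Msn had log2 differences of 0.17 and −0.21 on A, and Itgb5, Msn and Rdx of 0.10, 0.01 and −0.13 on B. The 1 partner tested on C was Itgb5, at −0.0021. Of 13 tubule genes tested on A, 7 were lower and 6 higher, and 1 of the 13, the glucose transporter Slc5a2, was highest in kidney 1. The log2 difference was −0.41 for Slc34a1, 0.38 for the endocytic receptor Cubn and 0.74 for Pck1 on A. On C all 4 tested were higher in congenic kidneys (median log2 difference 0.21, no call), among them Hnf4a, which maintains proximal tubule identity, at 12953, 11851 and 12645 against 14419 and 13848, and the calcium-binding Calb1 had a log2 difference of 0.24 and Pck1 of 0.27. For Pck1 and the anion transporter Slc22a8 congenic kidney 4 was the highest and congenic kidney 5 the lowest of all 5, so their positive differences rest on kidney 4.

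**Figure D3:**
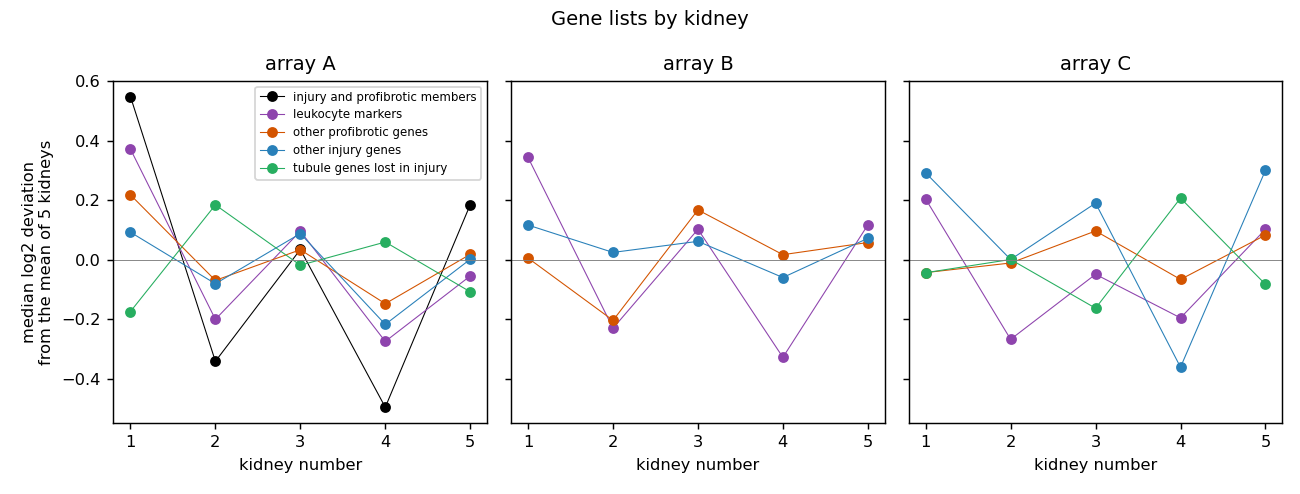
Median log2 deviation from the mean of the 5 kidneys for the members on A (black) and for 4 gene lists on A and C and 3 on B, by kidney number, over all measured genes of a list; lines only join the points of a list. On A the members have 0.55 in kidney 1 and −0.49 in kidney 4, and the leukocyte markers are at 0.37 and −0.27 in the same kidneys. The lists of transforming growth factor beta genes and of osteopontin and hyaluronan partners are not drawn.

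Leukocyte markers differed between kidneys too, and their part in the result was not tested. Of 12 markers 6 were measured on A, 4 of them highest in kidney 1 and 3 lowest in kidney 4, but only Cd74 and C1qb both, with a median deviation of 0.37 in kidney 1 and −0.27 in kidney 4. On B, 3 of the 4 measured were highest in kidney 1 and 3 lowest in kidney 4 (medians 0.34 and −0.33), and on C 4 of 7 were highest in kidney 1 (median 0.20) and 2 lowest in kidney 4 (median −0.19), with the lowest median in kidney 2 (−0.27). The T cell gene Cd3e went the other way on C, at 922.0, 861.9 and 781.7 in Dahl S and 1313 and 1039 in congenic kidneys. Its groups did not overlap there (limma adjusted p = 0.775), and no share of probe sets higher without overlap is given for C. The rise was not repeated on B, where Cd3e was below the filter and its groups overlapped. Kidney 4 was lowest for Cd3e on B (237.8), and the log2 difference was −0.02. Over all named genes kidney 1 was highest for 13.1% on A, 20.1% on B and 16.3% on C. Kidney 4 was lowest for 32.1% on A, 23.4% on B and 21.3% on C. The summed signal of the leukocyte markers on A was 11552 to 17592 in kidneys 1 to 3 and 11417 to 15233 in kidneys 4 and 5. On B it was 8252 to 12672 in Dahl S and 8684 to 10745 in congenic kidneys, and on C 8449 to 11133 and 8857 to 10238. The macrophage gene C1qb measured 1129, 767.0 and 919.3 against 695.3 and 846.2 on A, so kidney 1 was highest. The pan-leukocyte gene Ptprc had another order on A, at 81.9, 95.8 and 101.8 in kidneys 1 to 3 and 234.2 and 109.6 in kidneys 4 and 5. It was thus lowest in kidney 1, where it lay under the floor, and highest in kidney 4. Fibroblast and smooth muscle markers had a median deviation of 0.25 in kidney 1 and −0.17 in kidney 4 on A, with 3 of 8 highest in kidney 1. Collecting duct markers ran opposite in kidney 4 of A, where 4 of 6 were highest (median deviation 0.28), against 13.6% of all genes. Among them the water channel Aqp2 measured 6022, 5434 and 6094 in kidneys 1 to 3 and 8110 and 6484 in kidneys 4 and 5. Its limma adjusted p was 0.999. Fxyd4 and Scnn1g were highest in kidney 3, each with a log2 difference of −0.09. The part of these collecting duct markers was not tested. The GAPDH 3′ to 5′ ratio of A was 1.06 to 1.07 in kidneys 1 to 3 and 1.04 in both other kidneys. The actin ratio of A was 1.45, 1.55 and 1.42 in kidneys 1 to 3 and 1.32 and 1.35 in kidneys 4 and 5. Both ratios were lower in kidneys 4 and 5 without overlap, and their part in the results was not tested.

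**Figure D4:**
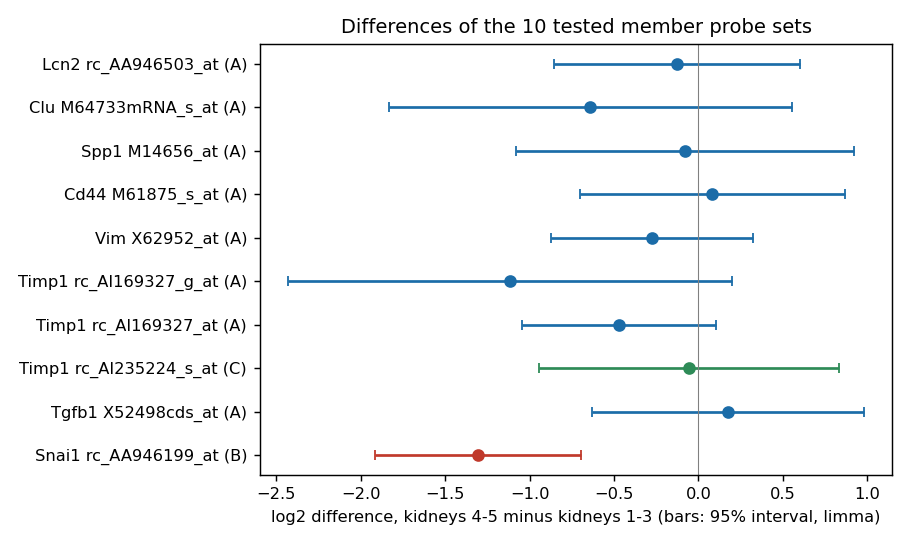
Log2 difference of kidneys 4 and 5 from kidneys 1 to 3 for the 10 tested member probe sets, with 95% intervals from limma that are not adjusted for the number of probe sets; blue is A (strain of kidneys 4 and 5 unsettled), red B and green C. The interval of Snai1 (−1.92 to −0.69) lies below 0 and the other 9 include 0.

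For the tested member probe set with the largest SD on each design, the genes with the nearest profile over the 5 kidneys were taken by the root mean square of the log2 difference in deviations. On A this was the second Timp1 probe set, and the nearest of 3682 named probe sets were the beta-galactoside lectin Lgals1 (0.28), the lipoxygenase Alox15 (0.38) and the carboxypeptidase Cpz (0.38), where the median was 0.89. Lgals1 measured 7565, 4831 and 7007 in kidneys 1 to 3 and 2231 and 6184 in kidneys 4 and 5. Its low value in kidney 4 follows from its choice by profile. On B the nearest to Snai1 were the G protein subunit Gng2 (0.30), Zfp609 (0.31) and the glycine transporter Slc6a9 (0.36), with a median of 0.71 over 3330 probe sets. On C the nearest to Timp1 were the translation factor Eif4b (0.23), the transcription factor Sox4 (0.25) and Cd47 (0.27), with a median of 0.50 over 3505.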

How the data were processed

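Signal was measured with 3 single-channel array designs on 5 kidneys each. Per probe set, the authors deposited a signal intensity on a linear scale. How it was computed is not stated in the sources. Its trimmed mean (2% off each end) was 999.5 to 1000.0 for every array, so the arrays had been brought to a common scale, which was kept. Whether a background was subtracted is unknown. Gene symbols came from the platform annotation, updated by gene identifier to GRCr8 (matched for 6985 of 7006 single-symbol probe sets of A, 5333 of 5351 of B, 5804 of 5821 of C).

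Floored log2 values were fitted per design in R 4.3.3 with limma 3.58.1 (lmFit, eBayes), with Benjamini-Hochberg adjustment over all tested probe sets and a threshold of 0.05. Controls, 59 probe sets a design, were not tested. Differences are kidneys 4 and 5 minus kidneys 1 to 3. The procedure was run on simulated data with normal noise, only to check that the fit returned, on average, the differences put in. Its power with so few arrays is not reported here. The members, lists and rules were chosen with earlier results of these data known. All member probe sets were described, and for each pathway list any called gene was to be named, and failing that the 3 tested genes with the lowest p, with a gene per list represented by its brightest probe set. Marker lists for endothelium, podocytes, proximal tubule, loop of Henle, collecting duct and blood served to check the tissue, and no gene of these lists passed the threshold (limma), with 1, Podxl on B, at an unadjusted p under 0.05. Alternatives were other scalings, floors, filters and variance models, a pseudocount of 50 in place of the floor, and leaving out each array.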

Additional observations from a re-analysis of the deposited data

How the results depend on the processing

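In each alternative run, 0 member probe sets passed the threshold on A, B or C. Of 196 recomputed member differences 13, from 6 probe sets, turned sign. Leaving out each array in turn gave log2 differences of −0.65 to 0.50 for Spp1, −0.48 to 0.23 for Lcn2, −0.36 to 0.52 and −0.09 to 0.11 for Cd44 (M61875_s_at and A30543cds_s_at), −0.10 to 0.50 for Tgfb1 and −0.69 to 0.58 for Timp1 on C, which was also 0.060 with array quality weights. Without a change of sign, the range was −1.10 to −0.16 for Clu and −2.01 to −0.22 for Timp1 (rc_AI169327_g_at). The member genes lowest in kidney 4 on A were 4 with quantile normalisation and 2 with median scaling, an alternative chosen after seeing the data. No share of all genes is given for either scaling.

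The counts of all probe sets past the threshold moved more. On A there were 2 without a filter and 0 to 25 when an array was left out. On B there was 1 under median scaling, quantile normalisation, array quality weights, a filter at the 75th percentile or floors at the 10th or 40th percentile, and 0 to 31 when an array was left out. On C there were 2 without a filter, 1 with an intensity trend and robust variance, and 0 to 34 when an array was left out. The highest counts came without kidney 5 on each design, where the lone kidney 4 is assumed to vary like kidneys 1 to 3, and the cause was not tested. No paired analysis was possible because kidneys 1 to 3 and kidneys 4 and 5 of a design share no number. Signals near the floor, such as Havcr1 and 3 of the Cd44 probe sets, limit what can be seen.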

Other observations

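Other genes of the lists had their highest value in kidney 4. Pck1, the rate-limiting enzyme of gluconeogenesis in the proximal tubule, measured 14299 in kidney 4 and 4802 to 5358 in the other kidneys on A, and 41284 against 18562 to 23615 on C. Podxl, the podocalyxin of podocytes, measured 5106 in kidney 4 against 2469 to 3188 on B, and 1887 against 777.4 to 1327 on C. Kidney 4 was highest for 21.1% of all genes on B and 19.0% on C. The podocyte gene Wt1, below the filter, was highest in kidney 4 on B (364.2) but in kidney 2 on A (149.0). Synpo, another podocyte gene, measured 511.5 in kidney 4 and 510.1 in kidney 2 on A. Bmp7 was highest in kidney 4 on A (1048 against 432.1 to 801.8) and on B (3315 against 2269 to 2718). Egf, whose loss accompanies tubular injury, was highest in kidney 4 on A, at 10017 against 7112 to 8352. Of the 13 tubule genes of its list on A, 5 were highest in kidney 4 and 6 in kidney 2, against 13.6% and 20.0% of all genes. Their median deviations were 0.06 in kidney 4 and 0.18 in kidney 2, and Slc5a2 was lowest in kidney 4. Pck1, Podxl, Bmp7 and Egf were chosen after their values were seen.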
